A study of Mus musculus with 12 samples.

Results

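CD8+ T cells that had been expanded with dichloroacetate (DCA) were compared between the study's 2 experiments. The members are libraries, taken by their labels: the 3 DCA libraries of experiment 1 and the 3 of experiment 2, 6 of the 12 bulk RNA sequencing libraries in all. Each library came from a different T cell receptor transgenic mouse. Mice of experiment 1 carry the strain tag OT-1 and the genotype C57BL/6-Tg(TcraTcrb)1100Mjb/J, although their titles say Pmel-1. Mice of experiment 2 are tagged Pmel-1, with the transgene Tg(TcraTcrb)8Rest/J on a B6.Cg-Thy1a/Cy background. Per the labels' protocols, whole spleens received their own peptide for 24 hours, 250 nM SIINFEKL for OT-1 and 1 uM gp100 for pmel-1. All 6 cultures were then expanded for 6 days with 5 mM DCA, in medium with IL-2, and were sorted for CD8 on day 7. The labels name 2 technical batches, and no ages are stated in these labels. Strain, transgene, peptide and technical batch all coincide with experiment, so whatever differs between the groups cannot be told apart by these causes. A transgenic mouse of either line makes most of its CD8+ T cells with 1 receptor, so each group stands for 1 receptor and 1 peptide.

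DCA inhibits the pyruvate dehydrogenase kinases, which switch off pyruvate dehydrogenase by phosphorylation. Pyruvate dehydrogenase turns pyruvate, the end product of glycolysis, into acetyl-CoA for the tricarboxylic acid cycle and the respiratory chain. Activated CD8+ T cells use glycolysis heavily and turn much of the pyruvate into lactate. Effector CD8+ T cells make granzymes, perforin and cytokines, while memory and stem-like cells keep factors such as TCF-1 and receptors for lymph node entry and for IL-7. The question here is at which level of these genes the DCA-expanded cells of the 2 experiments were alike and at which they differed.

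The 3 libraries of experiment 1 held 28039699 to 30494791 counts and those of experiment 2 held 29071483 to 34553269. The first principal component of log2 CPM over the 6 libraries held 66.0% of the variance, with the experiments on opposite sides. The next component held 12.2% and spread the libraries of experiment 1, from -55.2 to 61.1, against -0.98 to 2.45 in experiment 2. Genes with at least 1 count numbered 18747 to 19322 in experiment 1 and 23635 to 24326 in experiment 2. Mitochondrial genes took 1.32% to 1.58% of counts against 2.11% to 2.40%, and ribosomal protein genes took 7.51% to 7.95% against 6.41% to 6.68%. These groups did not overlap, and 3 libraries against 3 cannot give an exact permutation p below 0.1. The 2 most abundant of the 14 receptor segments looked at went with the strain tags. Trbv12-1, which the OT-1 receptor can use, was at 202 to 230 CPM (read counts scaled to library size) in experiment 1 and at most 0.138 CPM in experiment 2. Trbv14, the pmel-1 segment, had 0 counts in experiment 1, which allows up to 3 counts, and 1679 to 1848 CPM in experiment 2. Trbv12-2, a segment close to Trbv12-1, did not follow it, at 0.0779 to 0.359 CPM against 19.7 to 22.4 CPM. The alpha chain segments matched were all at or below 5.42 CPM, so no alpha chain could be told from them, and Trav14-1 overlapped between the experiments.

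The CD8+ T cell label held in every library. The 8 CD8 T cell markers summed to 6294 to 6720 CPM in experiment 1 and 5146 to 5440 CPM in experiment 2. Some markers of other spleen cells were at 0 counts in all 6 libraries, while others on the same lists were not, as given below. At 0 were C1qa and Marco for macrophages, S100a8, S100a9 and Elane for neutrophils, and Foxp3 for regulatory T cells. The 10 B cell markers summed to 403 to 472 CPM against 422 to 504 CPM, nearly all of it Ighm. The 6 natural killer (NK) cell markers summed to 19.6 to 26.1 CPM in experiment 1 and 0.756 to 6.76 CPM in experiment 2. Among them Ncr1 and Klra4 were at 0 in experiment 1 and Klra8 at 0 in both, while Klrb1c was at 9.14 to 12.9 CPM against 0.0504 to 1.15 CPM. Klre1 was at 3.585 to 11.95 CPM against 0.378 to 0.554 CPM, and Tyrobp overlapped, at 3.67 to 6.85 CPM against 0.277 to 5.20 CPM. The 8 neutrophil and mast cell markers summed to 21.4 to 26.9 CPM against 9.87 to 11.02 CPM, without overlap. Among these the basophil protease gene Mcpt8 was at 6.88 to 11.3 CPM against 0.304 to 0.940 CPM, Kit at 9.24 to 12.7 CPM against 2.94 to 6.12 CPM and Cpa3 at 2.81 to 5.73 CPM against 4.53 to 7.08 CPM. The 6 CD4 and regulatory T cell markers summed to 6.53 to 8.96 CPM against 7.51 to 12.8 CPM, mostly Zbtb7b, with Il4 at 0.267 to 1.64 CPM against 1.99 to 5.17 CPM. The 10 macrophage markers summed to 12.04 to 33.4 CPM against 14.3 to 17.1 CPM. Most of this was Cd68, at 10.4 to 29.9 CPM against 13.3 to 15.4 CPM. Cd14 was at 1.60 to 3.44 CPM against 0.498 to 2.03 CPM, and Mrc1 had 1 count against 48. The 5 gamma delta T cell markers summed to 348 to 771 CPM against 476 to 564 CPM. The 6 stroma and endothelium markers summed to 13.3 to 22.6 CPM against 40.9 to 47.4 CPM, mostly Pecam1. The 8 dendritic cell markers summed to 56.4 to 72.9 CPM against 111 to 113 CPM, mostly the interferon-induced gene Bst2. In bulk RNA, fewer cells of a type and less RNA per cell cannot be told apart.

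Differences are given as log2 of experiment 2 over experiment 1, so a value of 1 is a 2-fold higher level in experiment 2, and each comes with its standard error (SE). A gene was called higher or lower when its adjusted p was under 0.05 by edgeR's quasi-likelihood test with Benjamini-Hochberg adjustment over all tested genes. Levels of a gene are CPM after TMM scaling, listed for mouse 1, 2 and 3 of each experiment. A gene was counted as held within 1.5-fold when the 95% interval of its difference lay wholly inside that range, since a p that misses the threshold does not show that levels are alike.

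Of 15688 tested genes, 8198 were called (52.3%), with 4414 higher in experiment 2 (28.1%) and 3784 lower (24.1%). Of the calls, 4449 had an absolute log2 difference of at least 1 (28.4%). Genes held within 1.5-fold numbered 2016 (12.9%), of which 380 were also called, and 5854 genes were neither called nor held. The 3 libraries of experiment 1 and the 3 of experiment 2 did not overlap in 9652 genes (61.5%). The median difference over all tested genes was 0.11 and the median absolute difference 0.73. The absolute value is taken over estimates with their errors, so it does not show by how much a typical gene differed.

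The differences went with a gene's level and base composition. Of the 126 genes at or above 1000 CPM, 66.7% were lower in experiment 2 and 24.6% higher, while of 4430 genes at 1 to 10 CPM, 14.0% were lower and 29.3% higher. Of 1833 genes at 100 to 1000 CPM, 63.2% were lower, 21.7% higher and 25.4% held within 1.5-fold. The median difference was -0.26 in the third of genes with the lowest GC content and 0.59 in the third with the highest. The part of these trends in any 1 gene's difference was not tested. Each gene was therefore also tested after 4 other scalings. These were RLE size factors, cyclic loess (which adjusts for level, tested with limma), removal of a GC trend and removal of a length trend. Cyclic loess moved the median of all genes from 0.11 to -0.03, and the GC and length corrections moved it to 0.03 and -0.007. At 100 to 1000 CPM cyclic loess moved the median from -0.56 to -0.11. At or above 1000 CPM it went from -0.55 to 0.35, so loess values of the most abundant genes lean the other way. Called the same way under all 5 scalings were 2884 genes higher (18.4%) and 2900 lower (18.5%), and 583 genes were held within 1.5-fold under all 5 (3.72%). A gene described below as robust has the same call under each of the 5.

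The most abundant messages were shared in part. Ranked by CPM per kilobase over 15067 genes with a length, 10 of the top 20 genes, 66 of the top 100 and 370 of the top 500 were shared by the experiments. Of these shared genes, 4, 15 and 68 were held within 1.5-fold. Across genes, the correlation of log2 CPM between libraries of different experiments was 0.938 to 0.948, and within an experiment it was at least 0.987. Genes are not independent replicates, so this is a description. The plot of list members by difference shows how 21 gene lists were placed against the median of all genes. Counts of list members below stand beside the shares of all tested genes, which are not matched to a list's level. Under all 5 scalings these shares were 18.4% higher, 18.5% lower and 3.72% held.

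**Figure D1:**
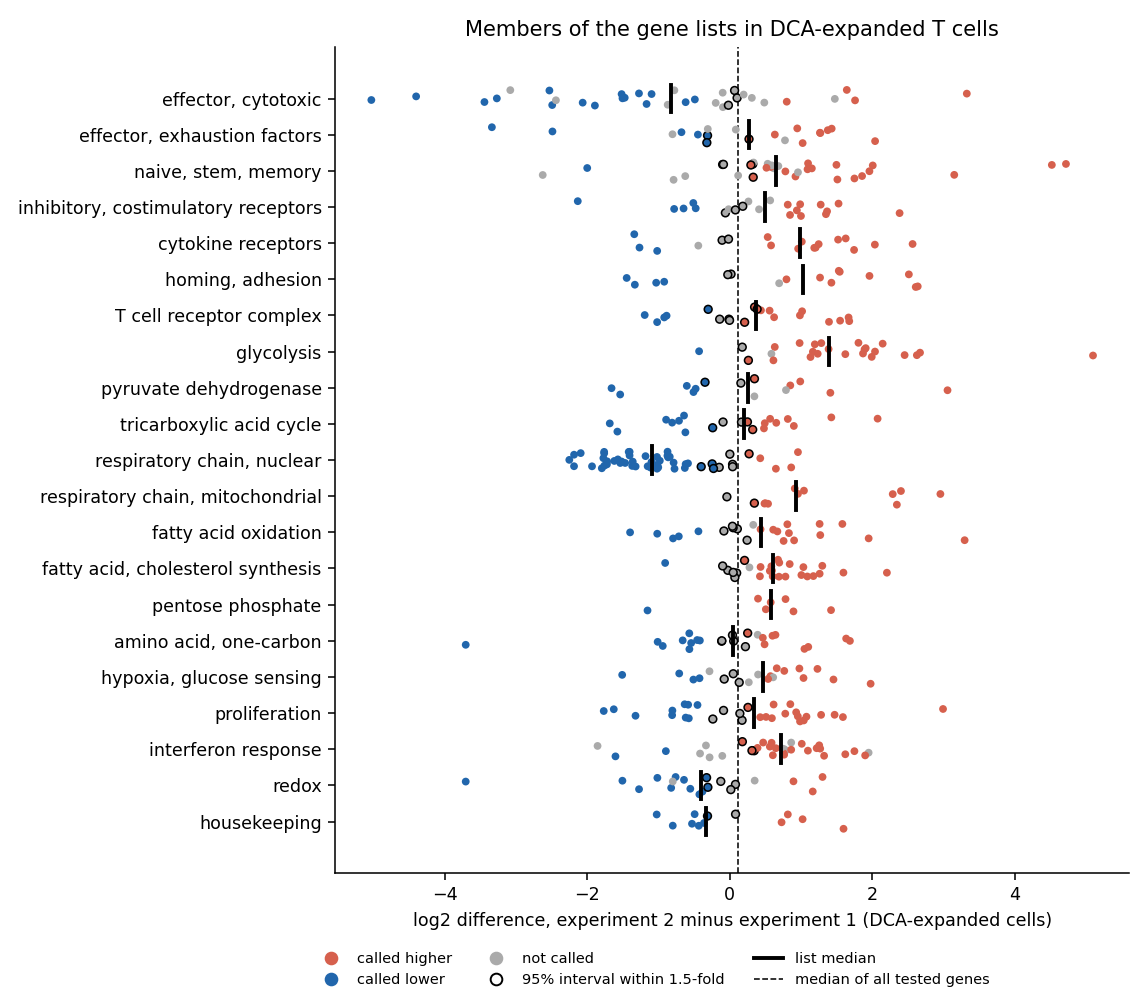
Log2 difference, experiment 2 minus experiment 1, of every tested member of 21 gene lists in DCA-expanded cells (x axis), with 1 row of points per list. Red points were called higher, blue points lower and grey points not called, black rings mark members held within 1.5-fold, the bars are list medians and the dashed line is the median of all tested genes (0.11). The nuclear respiratory chain lies mostly to the left, with a median of -1.09, and glycolysis mostly to the right, with a median of 1.39.

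Genes of the cytotoxic effector programme were lower in experiment 2 more often than higher. Of 34 tested members, 16 were lower, 4 higher and 3 held within 1.5-fold, with a median difference of -0.82, and 24 had groups that did not overlap, beside 61.5% of all tested genes. Under all 5 scalings 15 were lower and 3 higher. Beside these counts, 24.1% of all tested genes were lower and 28.1% higher, and under all 5 scalings 18.5% and 18.4%.

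Granzyme B, the protease that triggers apoptosis of target cells, was among the most abundant messages of both groups. Gzmb was at 7210, 9830 and 7674 CPM in experiment 1 and at 8877, 7707 and 9324 CPM in experiment 2. The libraries overlapped, and the difference was 0.07 (SE 0.11, adjusted p = 0.620), held within 1.5-fold with TMM scaling. Per kilobase it stood at rank 2 to 4 of all genes in each of the 6 libraries. This likeness depended on the scaling, since under cyclic loess Gzmb was called higher by 1.44 (limma adjusted p = 1.36e-08).

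Granzyme A, a protease with other substrates, differed where granzyme B did not. Gzma was at 4709, 4130 and 5190 CPM in experiment 1 and at 446, 520 and 489 CPM in experiment 2. Every experiment 1 library was above every experiment 2 library, and the difference of -3.27 (SE 0.12, adjusted p = 3.62e-11) was robust. Its rank per kilobase ranged from 4 to 110 over the 6 libraries. Gzme, a granzyme of strongly activated cells, was at 44.7, 68.6 and 77.9 CPM against 10.9, 2.93 and 3.85 CPM, a difference of -3.44 (SE 0.48). Near-identical neighbouring granzyme genes could have shared its reads, so this value is uncertain.

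Perforin, which makes the pores for granzymes, showed no call. Prf1 was at 36.5, 43.2 and 35.5 CPM in experiment 1 and at 48.3, 28.6 and 31.1 CPM in experiment 2. The groups overlapped, and the difference was -0.10 (SE 0.24, adjusted p = 0.767), with an interval too wide to hold it within 1.5-fold. Genes of granule handling went both ways. Stxbp2, needed for granule fusion, was at 43.2, 49.8 and 44.7 CPM against 159, 156 and 152 CPM, higher by 1.76 and robust. The cysteine protease gene Ctsw was higher by 0.80, also robust. Unc13d, which primes granules, was at 34.6, 29.8 and 32.5 CPM against 34.5, 31.0 and 30.3 CPM. It was held within 1.5-fold (-0.02), but was called lower after GC correction (-0.71) and length correction (-0.26). Srgn, the granule proteoglycan serglycin, was held at 410 and 440 CPM on average (0.10), and was called higher after cyclic loess (0.69) and GC correction (0.37). Nkg7, a granule membrane protein, was at 3628, 3298 and 3627 CPM against 1578, 1708 and 1647 CPM. Its difference of -1.10 (SE 0.06, adjusted p = 1.53e-09) ended with cyclic loess, where it was -0.03 (limma adjusted p = 0.689).

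Death ligands, cytokines and chemokines did not move as 1 block. Fasl, which engages the death receptor Fas, was at 166, 164 and 163 CPM against 53.2, 56.7 and 62.0 CPM, lower by a difference of -1.52 (SE 0.08, adjusted p = 1.04e-09) and robust. Tnf, the tumour necrosis factor gene, was at 17.5, 12.6 and 15.3 CPM against 41.02, 54.6 and 46.0 CPM, higher by 1.64 (SE 0.14) and robust. The cytotoxic cytokine pair therefore ran in opposite directions without overlap in either. Ccl5, a chemokine of effector and memory cells, was at 146, 26.1 and 38.6 CPM against 14.3, 15.9 and 20.2 CPM. It was lower by a difference of -2.06 (SE 0.53, adjusted p = 0.00435), and the experiment 1 library of mouse 1 stood apart. Without that library the difference was -0.94 (adjusted p = 0.0455). Ifng was near its floor in all 6 libraries, with at most 0.378 CPM, and was not called (1.48, SE 1.02, adjusted p = 0.244). Without mouse 2 of experiment 1, which held all of that group's Ifng counts, it was called (adjusted p = 0.00424).

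Lectin-like receptors shared by NK cells and cytotoxic T cells were among the largest differences of all named genes. Klrc1, which encodes NKG2A, was at 384, 229 and 202 CPM in experiment 1 and at 12.2, 14.4 and 11.96 CPM in experiment 2 (-4.40, SE 0.31, adjusted p = 1.78e-08). Klra5, a Ly49 family gene, was at 244, 97.8 and 286 CPM against 1.94, 3.63 and 2.54 CPM (-6.27, SE 0.41). Fcer1g, a signalling adaptor of such receptors, was at 123, 146 and 266 CPM against 11.4, 7.89 and 5.06 CPM (-4.46, SE 0.38). In these 3 genes each experiment 1 library was above each experiment 2 library. Klra5 belongs to a family of near-identical genes, so its reads may come from several of them. The sums of the NK cell markers and of the neutrophil and mast cell markers were also lower in experiment 2, as given above, with Ncr1 at 0 in experiment 1. Not every member of these lists was lower, and the part of these markers in the differences was not tested. Klrg1, a marker of terminal effector cells, was at 1.15, 3.30 and 1.25 CPM against 0.441, 0 and 0.227 CPM and was not called (-3.08, SE 1.25, adjusted p = 0.0523). It was called under RLE factors (adjusted p = 0.0492), cyclic loess (0.0137, limma), with low counts left in (4.37e-05) and with the 6 DCA libraries alone (0.0146).

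Transcription factors of effector and exhausted cells were split. Of 19 tested, 9 were higher, 6 lower and 3 held within 1.5-fold (7, 3 and 0 under all 5 scalings), with a median of 0.27. The shares of all tested genes were 28.1%, 24.1% and 12.9%. Eomes and T-bet, the pair of T-box factors that drive cytotoxic genes, differed in opposite directions. Eomes was at 25.9, 26.7 and 28.1 CPM against 3.85, 1.80 and 2.34 CPM (-3.34, SE 0.24, adjusted p = 2.22e-08), and this was robust. Tbx21, the T-bet gene, was at 6.42, 5.34 and 5.73 CPM against 15.4, 12.2 and 14.5 CPM (1.27, SE 0.31, adjusted p = 0.0032), a call lost after GC correction (0.57, adjusted p = 0.151). Each of the 3 experiment 1 libraries held more Eomes and less Tbx21 than any experiment 2 library.

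Prdm1, the gene of the terminal differentiation factor Blimp-1, was at 12.7, 21.8 and 18.2 CPM against 38.1, 38.6 and 30.5 CPM, higher by 1.02 (SE 0.23, adjusted p = 0.00161) and robust. Robustly higher were also Bhlhe40 (1.43), a regulator of mitochondrial and cytokine genes in T cells, Irf8 (1.27) and the hypoxia-inducible factor gene Hif1a (0.63). Batf3 was robustly lower (-0.68). Tox, a factor of exhausted cells, was at 1.49, 4.52 and 5.84 CPM against 9.14, 12.8 and 8.89 CPM. Its difference of 1.38 (SE 0.46, adjusted p = 0.0204) was lost without mouse 1 of experiment 1 (0.0645) or mouse 2 of experiment 2 (0.0754).

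Some factors stayed close. Id2, which supports effector differentiation, was at 874, 894 and 695 CPM against 699, 642 and 644 CPM. The groups overlapped and the difference was held within 1.5-fold, yet it was called lower (-0.31, adjusted p = 0.0185). Under cyclic loess Id2 was called higher (0.47), and without mouse 1 or mouse 2 of experiment 1 the call was lost (0.0725 and 0.0850). Runx3 (0.27) and Batf (-0.32) were also both called and held within 1.5-fold. After GC correction Runx3 was called lower (-0.34), and both calls were lost after length correction (0.04 and -0.22).

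Genes of naive, stem-like and memory T cells were higher in experiment 2 more often than lower. Of 32 tested members, 19 were higher, 1 lower and 5 held within 1.5-fold, with a median of 0.65, and 23 did not overlap between groups, beside 61.5% of all tested genes. Under all 5 scalings 15 were higher and 1 lower. Beside these counts, 28.1% of all tested genes were higher, and 18.4% under all 5 scalings.

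Some of the factors that keep T cells stem-like were higher, and others were not. Tcf7, the gene of TCF-1, was at 20.2, 14.7 and 15.1 CPM in experiment 1 and at 60.5, 78.5 and 62.2 CPM in experiment 2. Its difference was 2.01 (SE 0.29, adjusted p = 3.54e-05). Lef1, its partner factor, was at 82.5, 62.3 and 84.2 CPM against 126, 165 and 143 CPM (0.92, SE 0.14, adjusted p = 6.04e-05). Id3, an inhibitor of E proteins that marks memory precursors, was at 40.7, 32.9 and 51.8 CPM against 127, 147 and 147 CPM (1.75, SE 0.16, adjusted p = 3.36e-07). These 3 factors were robust and without overlap. Foxo1, which controls Klf2 and Il7r in resting cells, was at 35.9, 28.7 and 33.0 CPM against 31.0, 29.4 and 31.4 CPM. Its difference of -0.09 was held within 1.5-fold under each of the 5 scalings, and it was singled out after its values were seen as the member of this list with that property. Klf2 itself was at 16.5, 5.77 and 11.1 CPM against 6.96, 6.51 and 5.87 CPM and was not called (-0.79, SE 0.36, adjusted p = 0.0846). It was called lower after GC correction (-1.49, adjusted p = 0.00387), with no filter on low counts (0.0334) and without mouse 2 of experiment 1 (0.0152).

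Receptors for lymph nodes and survival signals were higher as well. Ccr7, the chemokine receptor for lymph node entry, was at 24.9, 26.7 and 30.0 CPM against 199, 270 and 256 CPM (3.15, SE 0.16, adjusted p = 4.92e-10). Il7r, the IL-7 receptor alpha chain, was at 31.7, 38.1 and 33.2 CPM against 74.3, 68.4 and 86.2 CPM (1.15, SE 0.20, adjusted p = 0.000193). Slamf6, a surface marker of stem-like cells, was at 10.6, 19.9 and 14.9 CPM against 54.7, 58.6 and 63.5 CPM (1.96, SE 0.25, adjusted p = 1.08e-05). All of these were robust.

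Igfbp4, a secreted binding protein for insulin-like growth factors and a member of the list, showed one of the 10 largest positive differences among well expressed genes (log2 CPM averaging 3 or more). It was at 3.90, 7.57 and 10.6 CPM against 172, 193 and 143 CPM (4.52, SE 0.29, adjusted p = 7.34e-09). The member that was lower was Ly6c2, a surface protein of memory and effector cells, at 86.2, 61.9 and 74.4 CPM against 19.5, 14.2 and 21.8 CPM (-2.001, robust). Ly6c2 has a close copy, Ly6c1, with which it may share reads. Cd44, the activation marker, was at 51.0, 45.4 and 56.7 CPM against 59.6, 61.9 and 66.6 CPM. It was called (0.30, adjusted p = 0.0245) and held within 1.5-fold, and the call was lost after length correction (0.196), with the 6 DCA libraries alone (0.0582) and without mouse 2 of experiment 1 (0.0997) or mouse 2 or 3 of experiment 2 (0.0659 and 0.136). Cd28, the costimulatory receptor, and the factor gene Foxp1 were likewise both called and held, at 0.33 and 0.32. The call of Cd28 was lost after length correction (adjusted p = 0.211) and without mouse 3 of experiment 1 (0.0783) or mouse 2 of experiment 2 (0.0838). That of Foxp1 held under all 5 scalings, and was lost without mouse 2 or 3 of experiment 1 (0.0980 and 0.0501) or mouse 1 or 2 of experiment 2 (0.0677 and 0.169). The plot of effector and memory genes by library places these levels on 1 axis.

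**Figure D2:**
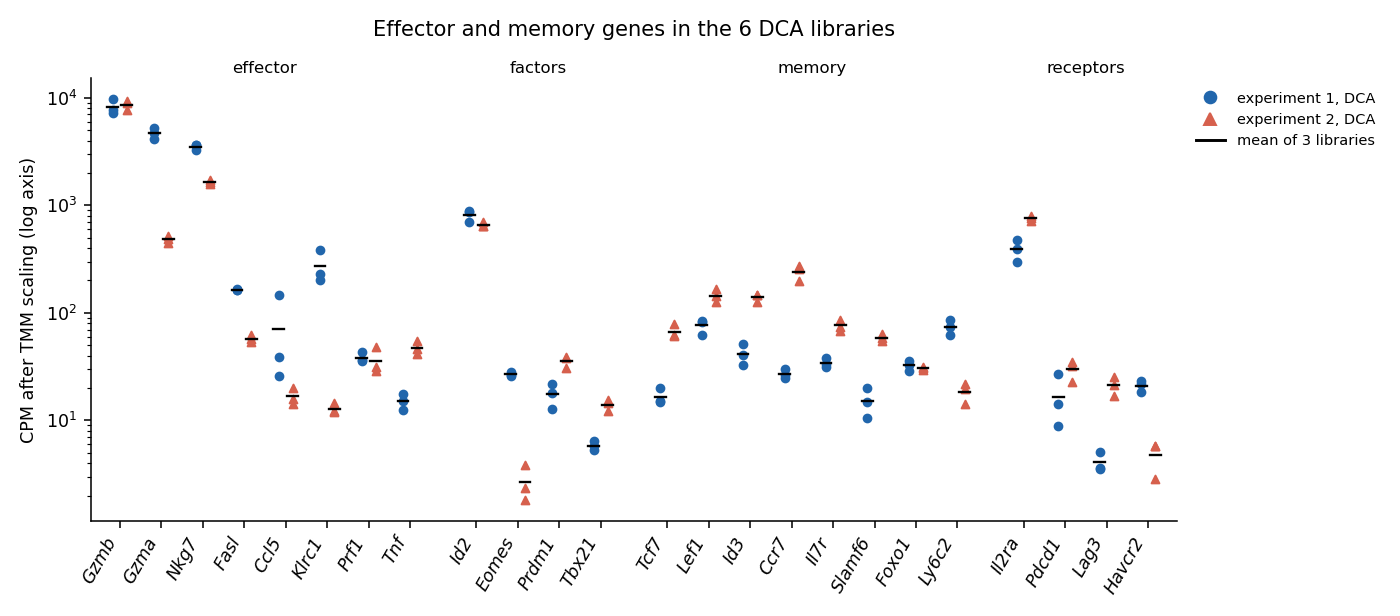
Level of effector and memory genes in each of the 6 DCA libraries, in CPM after TMM scaling on a log axis (y axis), by gene (x axis). Blue circles are the 3 experiment 1 libraries, red triangles the 3 experiment 2 libraries and bars their means. Gzmb, Prf1, Id2 and Foxo1 overlap between experiments, Gzma, Eomes and Klrc1 are lower in each experiment 2 library, and Tcf7, Ccr7 and Slamf6 are higher in each.

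Inhibitory and costimulatory receptors were mixed. Of 22 tested, 10 were higher, 5 lower and 3 held within 1.5-fold, with a median of 0.49 (8, 3 and 0 under all 5 scalings). Beside these, 28.1% of all tested genes were higher, 24.1% lower and 12.9% held. Lag3, an inhibitory receptor for MHC class II, was at 3.59, 5.09 and 3.51 CPM against 21.5, 25.3 and 17.03 CPM, robustly higher by 2.39 (SE 0.19, adjusted p = 8.1e-08). Havcr2, the gene of TIM-3, was at 23.2, 21.7 and 18.4 CPM against 5.76, 2.85 and 5.79 CPM, robustly lower by a difference of -2.13 (SE 0.29). These receptors of exhausted cells thus ran in opposite directions. Pdcd1, the PD-1 gene, was at 26.8, 14.1 and 8.88 CPM against 34.9, 22.8 and 31.8 CPM, with overlapping groups. Its difference of 0.85 (SE 0.29, adjusted p = 0.0253) was lost after GC correction (0.31, adjusted p = 0.416), with the 6 DCA libraries alone (0.0630) and without mouse 2 or 3 of experiment 1 (0.0840 and 0.0885) or mouse 1 or 3 of experiment 2 (0.105 and 0.0842). Tnfrsf9 (0.81), the costimulatory receptor 4-1BB, and Vsir (1.28), the checkpoint VISTA, were robustly higher. Entpd1 (-0.65), the ectonucleotidase CD39, and Cd244a (-0.78) were robustly lower. Cd160, at 85.6, 120 and 171 CPM against 117, 123 and 121 CPM, was held within 1.5-fold with TMM scaling (-0.06), and so were Tnfrsf18 (0.08) and Icos (0.18). Tnfrsf18 was called lower after GC correction (-0.51) and higher under cyclic loess (0.55), and Icos was called higher in both (0.45 and 0.58) and without mouse 2 of experiment 1 (adjusted p = 0.0116).

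Of 18 cytokine receptor genes tested, 12 were higher, 3 lower and 2 held within 1.5-fold, with a median of 0.99 (10, 3 and 0 under all 5 scalings). Of all tested genes, 28.1% were higher, 24.1% lower and 12.9% held. The chains of the IL-2 receptor, through which the cultures were fed, differed in direction. Il2ra, the high-affinity alpha chain, was at 297, 479 and 390 CPM against 788, 718 and 765 CPM (0.96, SE 0.13, adjusted p = 2.34e-05). Il2rg, the common gamma chain, was at 980, 918 and 966 CPM against 354, 388 and 389 CPM (-1.34, SE 0.07, adjusted p = 6.37e-10). Both were robust. Receptor genes Il27ra (2.04), Il21r (1.63) and Il4ra (1.52) were robustly higher. The IL-18 receptor chains Il18r1 (-1.02) and Il18rap (-1.27) were robustly lower. Tgfbr1, a receptor chain for the inhibitory cytokine TGF-beta, was held within 1.5-fold at a mean of 11.5 against 11.4 CPM (-0.02).

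Homing and adhesion genes had 9 members higher, 4 lower and 2 held within 1.5-fold of 16 tested. Their median was 1.03 (9, 3 and 2 under all 5 scalings). Among all tested genes, 28.1% were higher, 24.1% lower and 12.9% held. Icam1, an adhesion ligand of activated cells, was at 3.63, 4.84 and 4.52 CPM against 23.5, 28.8 and 27.2 CPM (2.61, SE 0.18). Itgb2, the beta chain of LFA-1, was robustly higher (1.27), while its partner alpha chain Itgal was at 126, 107 and 122 CPM against 126, 122 and 112 CPM. The interval of Itgal lay within 1.5-fold under all 5 scalings, although it was called lower after GC correction (-0.40, adjusted p = 0.0012) and higher under cyclic loess (0.30, limma adjusted p = 0.0133). Itgb1 was held under all 5 as well (-0.03). Selplg, the selectin ligand, was higher by 0.80. The receptors for inflamed tissue Cxcr6 (-1.03) and Ccr2 (-0.92) were robustly lower.

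Of the T cell receptor complex and its proximal signalling genes, 12 of 20 were higher, 5 lower and 7 held within 1.5-fold. Their median was 0.37 (7, 2 and 2 under all 5 scalings). The shares of all tested genes were 28.1% higher, 24.1% lower and 12.9% held. Cd8a was at 363, 349 and 416 CPM against 479, 513 and 537 CPM (0.44, SE 0.09), a call lost after length correction (0.18, adjusted p = 0.105). Cd3e (1.55) and Cd247 (0.99) were robustly higher, while Cd3d (-0.89) and Cd3g (-1.02) were lower and lost their calls under cyclic loess (-0.04 and -0.06). Thy1 was at 224, 218 and 250 CPM against 128, 111 and 126 CPM, robustly lower (-0.92), and the genotype of experiment 2 carries the Thy1a allele. Trac, the alpha chain constant region, was at 969, 833 and 882 CPM against 815, 905 and 960 CPM and was held within 1.5-fold (-0.00), although called higher under cyclic loess (0.78). Trbc2 was at 732, 763 and 679 CPM against 2196, 2399 and 2320 CPM (1.67), and reads of Trbc2 and its near-identical copy Trbc1 are hard to separate.

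Glycolysis genes were higher in experiment 2. Of 25 tested members, 22 were higher, 1 lower and 2 held within 1.5-fold, with a median of 1.39, and 24 did not overlap between groups. Of all tested genes, 28.1% were higher, 24.1% lower and 12.9% held, and 61.5% did not overlap. Under all 5 scalings 20 were higher and 0 lower, beside 18.4% and 18.5% of all tested genes. The median GC content of the list was 53.5% against 49.1% over all tested genes, and after GC correction 21 members were higher and 2 lower, with a median of 0.80. Under cyclic loess the median was 2.27. Of the named members, Pkm, Gapdh and Ldha had the largest differences. Pyruvate kinase makes pyruvate, lactate dehydrogenase A turns it into lactate, and glyceraldehyde-3-phosphate dehydrogenase makes the NADH that this step consumes.

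The 250 bases before the start of these 3 genes are shown because all 3 moved together by at least 1.99. They come from RefSeq (GRCm38.p6, not the build GRCm39 of the counts) and are written 5′ to 3′ on the gene's strand. Capitals mark each ACGTG (a form of the core of the hypoxia response element) on either strand, including those inside CACGTG, the E-box that MYC can bind. Other forms of that core, such as GCGTG, were neither marked nor counted.
Pkm (chr9:59656326-59656575, plus strand): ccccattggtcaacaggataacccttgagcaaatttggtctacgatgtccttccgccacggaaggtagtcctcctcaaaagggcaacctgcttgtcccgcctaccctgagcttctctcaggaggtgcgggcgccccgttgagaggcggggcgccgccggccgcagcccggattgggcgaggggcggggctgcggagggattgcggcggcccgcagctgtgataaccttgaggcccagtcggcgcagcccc
Ldha (chr7:46845554-46845803, plus strand): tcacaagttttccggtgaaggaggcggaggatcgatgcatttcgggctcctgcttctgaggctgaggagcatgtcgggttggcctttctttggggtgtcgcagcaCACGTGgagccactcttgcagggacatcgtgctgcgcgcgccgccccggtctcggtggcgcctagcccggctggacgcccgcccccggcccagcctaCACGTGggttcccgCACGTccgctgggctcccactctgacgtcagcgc
Gapdh (chr6:125165774-125166023, minus strand): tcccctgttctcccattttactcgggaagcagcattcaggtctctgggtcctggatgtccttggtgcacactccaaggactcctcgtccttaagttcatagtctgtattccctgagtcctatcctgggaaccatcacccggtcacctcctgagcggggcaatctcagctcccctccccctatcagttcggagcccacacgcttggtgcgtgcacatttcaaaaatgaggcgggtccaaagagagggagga
CACGTG contains ACGTG and is its own reverse complement, so each CACGTG counts as 2 ACGTG matches over both strands. Ldha held 2 CACGTG and 5 ACGTG matches over both strands, and the windows of Pkm and Gapdh held 0 of either. Of 25 glycolysis genes, 24 were matched by symbol, and 10 of them (41.7%) had ACGTG and 3 (12.5%) had CACGTG in this window. Among 27025 genes, 4477 (16.6%) had ACGTG and 1634 (6.05%) had CACGTG. Of the nuclear respiratory chain genes, 43 of 55 were matched, with ACGTG in 8 (18.6%) and CACGTG in 3 (6.98%). A match is a description of the letters and not a binding site.

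Pkm was at 478, 588 and 494 CPM in experiment 1 and at 3406, 3389 and 3142 CPM in experiment 2 (2.67, SE 0.08, adjusted p = 6.42e-12). Ldha was at 1692, 1950 and 1713 CPM against 7292, 6879 and 7157 CPM (1.99, SE 0.06, adjusted p = 7.74e-12). Gapdh was at 1372, 1607 and 1494 CPM against 6288, 6135 and 5972 CPM (2.04, SE 0.07, adjusted p = 2.62e-11). In each of these the lowest experiment 2 library was above every experiment 1 library, and all 3 were robust. Per kilobase, Ldha ranked 12 to 177 over the 6 libraries, with means of 539 against 2148 CPM per kilobase. Processed copies of Gapdh and Ldha elsewhere in the genome may share reads with them. Ldhb, the other lactate dehydrogenase subunit, was at 10.998, 18.8 and 12.1 CPM against 30.9, 31.3 and 33.9 CPM (1.19, SE 0.18).

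The steps upstream pointed the same way apart from hexokinase 2. Slc2a1, the glucose transporter GLUT1, was at 86.3, 75.8 and 76.6 CPM against 163, 146 and 163 CPM (0.98, SE 0.10). Slc2a3, the high-affinity transporter GLUT3, was at 136, 141 and 116 CPM against 535, 490 and 438 CPM (1.89, SE 0.15). Pfkp, the platelet-type phosphofructokinase of the committed step, was at 333, 377 and 317 CPM against 1196, 1238 and 1159 CPM (1.81, SE 0.07). These 3 were robust and without overlap. Hk2, which traps glucose in the cell, was the member called lower, at 240, 269 and 227 CPM against 184, 180 and 181 CPM (-0.43, SE 0.09, adjusted p = 0.00115). Under cyclic loess its difference was -0.00 (limma adjusted p = 0.999). The lactate transporter gene Slc16a1, at 62.0, 66.7 and 64.7 CPM against 82.4, 69.2 and 80.3 CPM, was both called (0.26, adjusted p = 0.0461) and held within 1.5-fold. The call ended with RLE factors (0.0682), length correction (0.892) and a stricter filter (0.0577). The muscle enolase gene Eno3 was held within 1.5-fold (0.18, adjusted p = 0.255) and was called lower after GC correction (-0.34). Myc, the factor that drives glycolytic genes in activated T cells, was at 223, 243 and 232 CPM against 776, 973 and 964 CPM (1.96, SE 0.09, adjusted p = 2.08e-10).

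The genes around pyruvate dehydrogenase, where DCA acts, did not share 1 direction. Of 14 tested, 5 were higher, 6 lower and 3 held within 1.5-fold, with a median of 0.25 (4, 4 and 0 under all 5 scalings). The median was -0.13 over the members that passed a filter of 5 CPM. Members called higher were 35.7% and lower 42.9%, beside 28.1% and 24.1% of all tested genes. Of all tested genes 12.9% were held. The kinases that DCA inhibits were unequal between the groups. Pdk1 was at 83.3, 87.4 and 79.8 CPM against 145, 169 and 137 CPM, robustly higher by 0.85 (SE 0.11, adjusted p = 1.14e-05). Pdk2, regarded as the isoform most sensitive to DCA, was at 0.382, 0.466 and 0.312 CPM against 4.08, 2.96 and 2.72 CPM. It was higher by 3.06 (SE 0.73, adjusted p = 0.00255), from a level close to the floor. Pdk3 was at 108, 142 and 112 CPM against 133, 132 and 139 CPM, overlapping and held within 1.5-fold (0.16, SE 0.10, adjusted p = 0.192). It was called under cyclic loess (0.47) and without mouse 2 of experiment 1 (adjusted p = 0.0102). Pdk4 had 1 count in the 6 libraries and was not tested.

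The complex itself was split by subunit. Pdha1, the subunit the kinases phosphorylate, was at 53.3, 60.2 and 52.6 CPM against 69.2, 67.3 and 74.8 CPM. It was called higher (0.35, SE 0.09, adjusted p = 0.00633) and held within 1.5-fold, and the call was lost after length correction (0.09, adjusted p = 0.425) and without mouse 3 of experiment 2 (0.0552). Dlat, the acetyltransferase core, was robustly higher (0.99), and Dld, the shared dehydrogenase subunit, robustly lower (-0.60). Pdhx, which tethers Dld, was called lower and held within 1.5-fold (-0.35). The call of Pdhx ended after GC correction (adjusted p = 0.0773) and with no filter on low counts (0.114).

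Entry of pyruvate into mitochondria differed strongly at the transcript level. Mpc1, which carries pyruvate across the inner mitochondrial membrane, was at 82.0, 80.6 and 82.4 CPM against 25.4, 24.6 and 27.6 CPM (-1.66, SE 0.09, adjusted p = 1.44e-09). Mpc2, its partner in the carrier, was at 258, 249 and 266 CPM against 85.2, 90.1 and 91.0 CPM (-1.54, SE 0.07, adjusted p = 1.26e-10). Both subunits were robustly lower in every experiment 2 library. Pcx, which makes oxaloacetate from pyruvate, was at 3.97, 4.77 and 4.09 CPM against 11.8, 10.6 and 11.8 CPM (1.41, robust).

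The tricarboxylic acid cycle was split, with 10 of 20 members higher, 8 lower and 5 held within 1.5-fold and a median of 0.21 (6, 4 and 0 under all 5 scalings). Its median was -0.05 after length correction. Beside its counts, 28.1% of all tested genes were higher, 24.1% lower and 12.9% held. Cs, the citrate synthase gene, was at 126, 129 and 121 CPM against 196, 194 and 201 CPM (0.65, SE 0.07, adjusted p = 1.21e-06). Idh2, an NADP-dependent isocitrate dehydrogenase, was at 22.9, 28.8 and 30.7 CPM against 70.5, 77.7 and 73.4 CPM (1.43, SE 0.11). Both were robustly higher in experiment 2, while Sucla2, a succinyl-CoA ligase subunit, was robustly lower (-1.58). Within succinate dehydrogenase, which is also complex II of the respiratory chain, Sdha was robustly higher (0.82) and Sdhb robustly lower. Sdhb was at 1320, 1308 and 1414 CPM against 421, 399.9 and 436 CPM (-1.68, SE 0.06, adjusted p = 2.01e-11). Held within 1.5-fold were Idh3b (0.16), Idh3g (-0.24) and Sdhc (0.25). None of these calls was the same under all 5 scalings. Idh3b was not called with TMM scaling but was called higher under cyclic loess (0.48, limma adjusted p = 0.000219), where Idh3g was not called (0.14, limma adjusted p = 0.0793). Idh3g also lost its call with no filter on low counts (adjusted p = 0.171). Sdhc lost its call after length correction (-0.0125, adjusted p = 0.915), with the 6 DCA libraries alone (0.0678) and without mouse 1 of experiment 1 (0.105) or mouse 2 or 3 of experiment 2 (0.0531 and 0.135).

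Nuclear genes of the respiratory chain and ATP synthase were lower. Of 55 tested, 46 were lower, 5 higher and 8 held within 1.5-fold, with a median of -1.09, and 51 did not overlap. Of all tested genes, 24.1% were lower, 28.1% higher and 12.9% held, and 61.5% did not overlap. Under all 5 scalings 38 were lower, 1 higher and 1 held, beside 18.5% and 18.4% of all tested genes. The list is short in length (a median of 1831 bases against 3630 over all tested genes) and high in level (a median of 397 against 9.15 CPM). Of all tested genes at 100 to 1000 CPM, 63.2% were lower, 21.7% higher and 25.4% held. Under cyclic loess, which adjusts for level, the median was -0.54, with 38 members lower, 11 higher and 19 held within 1.5-fold.

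The members with the smallest adjusted p were small subunits of complexes I and IV. Ndufc1 was at 1169, 1116 and 1223 CPM against 248, 258 and 264 CPM (-2.19, SE 0.06, adjusted p = 6.42e-12). Ndufa1 was at 892, 777 and 842 CPM against 176, 187 and 189 CPM (-2.19, SE 0.08), with ranks of 16 to 120 per kilobase over the 6 libraries. Cox7c, of cytochrome c oxidase, was at 1010, 985 and 1051 CPM against 242, 235 and 237 CPM (-2.09, SE 0.06). Cycs, the electron carrier cytochrome c, was at 1013, 1049 and 1079 CPM against 318, 294 and 340 CPM (-1.72, SE 0.07, adjusted p = 9.34e-11). These 4 genes did not overlap between groups and were robust.

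Core and catalytic subunits were not called alike. Atp5b, the catalytic beta subunit of ATP synthase, was at 1807, 1799 and 1928 CPM against 1843, 1779 and 1919 CPM. It was held within 1.5-fold with TMM scaling (0.00, SE 0.07), called higher under cyclic loess (1.00) and lower after GC correction (-0.26) and length correction (-0.24). Uqcrc1, a core subunit of complex III, was held as well (0.04) and was called in the same 3 ways (0.65, -0.35 and -0.21). Cyc1, the haem subunit of complex III, was called lower and held within 1.5-fold (-0.23), and was called higher under cyclic loess (0.30). Atp5a1 (0.65) and Atp5d (0.86) were higher, and both calls were lost after GC correction (0.13 and 0.16).

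Mitochondrially encoded subunits went the other way from the nuclear ones. Of 12 tested, 11 were higher, 0 lower and 2 held within 1.5-fold, with a median of 0.94 (10, 0 and 1 under all 5 scalings). With a filter of 5 CPM in 3 libraries, 8 members were left, 7 of them higher, and the median was 0.48. Of all tested genes, 28.1% were higher, 24.1% lower and 12.9% held. mt-Co1, the catalytic subunit of cytochrome c oxidase, was at 3315, 2758 and 2763 CPM against 6159, 5811 and 5194 CPM (0.96, SE 0.09, adjusted p = 3.31e-07). mt-Nd2 was at 509, 452 and 490 CPM against 937, 961 and 833 CPM (0.91, SE 0.09), and mt-Co3 was at 1.57, 1.58 and 1.87 CPM against 8.61, 8.39 and 8.54 CPM (2.35, SE 0.20). mt-Nd6 was held at a mean of 175 against 170 CPM (-0.04) under all 5 scalings. mt-Nd4 was called higher and held within 1.5-fold (0.35), a call lost without mouse 2 of experiment 2 (adjusted p = 0.0532). Reads of mitochondrial genes can be shared with nuclear copies, so these levels are uncertain, and the mitochondrial share of each library moved with them as given above.

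**Figure D3:**
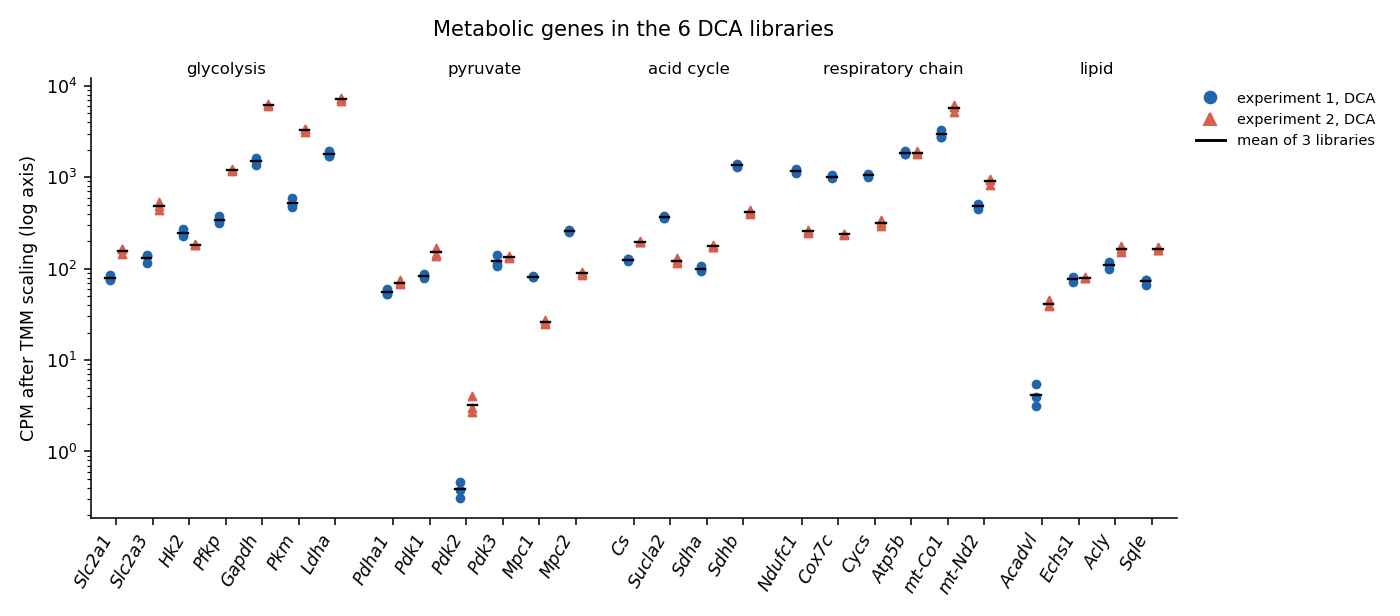
Level of metabolic genes in each of the 6 DCA libraries, in CPM after TMM scaling on a log axis (y axis), by gene (x axis). Blue circles are the 3 experiment 1 libraries, red triangles the 3 experiment 2 libraries and bars their means. Pkm, Gapdh and Ldha are higher in each experiment 2 library, Mpc1, Mpc2, Sdhb, Ndufc1, Cox7c and Cycs are lower in each, and Pdk3, Atp5b and Echs1 overlap.

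Lipid genes were more often higher than lower. In fatty acid oxidation 12 of 23 were higher, 5 lower and 5 held within 1.5-fold, with a median of 0.43 (11, 4 and 4 under all 5 scalings). Shares of all tested genes were 28.1%, 24.1% and 12.9%. Acadvl, the very long chain acyl-CoA dehydrogenase, was at 3.13, 5.49 and 3.97 CPM against 45.0, 38.7 and 40.5 CPM (3.30, SE 0.19, adjusted p = 1.8e-09). Acaa1a (1.95) and Hadh (1.27) were robustly higher, and Etfa (-1.40), Etfb (-1.02) and Eci1 (-0.72) robustly lower. Cpt1a, which gates fatty acid entry into mitochondria, was at 13.4, 12.7 and 17.8 CPM against 19.2, 17.9 and 18.1 CPM. It was not called (0.33, SE 0.16, adjusted p = 0.0942), except without mouse 3 of experiment 1 (0.0186). Echs1, a hydratase of the same pathway, was held within 1.5-fold at a mean of 77.0 against 79.6 CPM (0.05) under all 5 scalings. So was the acyl-CoA synthetase gene Acsl4 (0.04). Even so, Echs1 and Acsl4 were called higher under cyclic loess (0.23 and 0.24), and Acsl4 after GC correction too (0.39). Acaa2, a thiolase, was held with TMM scaling (0.24), and was called higher under cyclic loess (0.54) and after length correction (0.32).

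In fatty acid and cholesterol synthesis 20 of 27 were higher, 1 lower and 6 held within 1.5-fold. Their median was 0.60 (13, 1 and 2 under all 5 scalings). After GC correction 14 were higher, 2 lower and 13 held, with a median of 0.28. Over all tested genes, 28.1% were higher, 24.1% lower and 12.9% held. Acly, which makes cytosolic acetyl-CoA from citrate, was at 117, 109 and 99.6 CPM against 176, 164 and 152 CPM (0.59, SE 0.09, adjusted p = 3.31e-05). Acss2, which makes it from acetate, was at 14.8, 16.5 and 8.18 CPM against 35.4, 32.6 and 26.9 CPM (1.26, SE 0.22, adjusted p = 0.00021). Both routes to acetyl-CoA were robustly higher, without overlap. The cholesterol genes Lss (1.60) and Sqle (1.17) were robustly higher and Sc5d robustly lower (-0.91). Hmgcs1 was held within 1.5-fold at a mean of 365 against 384 CPM (0.07) and Scd2 at 419 against 411 CPM (-0.03). Both were called higher under cyclic loess (0.67 and 0.52). Hmgcs1 was also called higher after GC correction (0.33), and Scd2 was called lower after length correction (-0.23).

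The pentose phosphate list had 6 of 7 members higher and 1 lower, a median of 0.58, and 2 higher and 1 lower under all 5 scalings. Its robust members were Tkt (1.42), G6pdx (0.90), the entry enzyme, and Rpia (-1.15). Amino acid and one-carbon genes had 9 higher, 9 lower and 6 held of 24, with a median of 0.05 (5, 6 and 2 under all 5 scalings). That median was -0.19 after GC correction and -0.17 after length correction. Beside both lists, 28.1% of all tested genes were higher, 24.1% lower and 12.9% held. Slc1a5, a glutamine transporter, was at 80.9, 78.6 and 103 CPM against 316, 286 and 245 CPM (1.69), and Phgdh, the first enzyme of serine synthesis, at 140, 158 and 161 CPM against 486, 461 and 477 CPM (1.63). Slc38a2 (-0.94), another glutamine transporter, was robustly lower. These glutamine transporters thus did not share 1 direction.

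Hypoxia and glucose sensing genes had 9 higher, 4 lower and 3 held of 20, with a median of 0.47 (7, 3 and 2 under all 5 scalings). The shares of all tested genes were 28.1%, 24.1% and 12.9%. Txnip, a glucose-induced brake on glucose uptake, was at 90.1, 76.0 and 75.9 CPM against 170, 172 and 154 CPM (1.04, SE 0.09, adjusted p = 2.52e-07). Among hypoxia-induced genes, Egln3 (1.98) and Kdm3a (0.98) were robustly higher, and Higd1a (-1.51) and Ankrd37 (-0.71) robustly lower. Mlx, the partner of the glucose-sensing MondoA, was held within 1.5-fold at a mean of 58.6 against 60.6 CPM (0.05) under all 5 scalings.

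Proliferation genes had 16 higher, 10 lower and 5 held of 30, with a median of 0.34 (14, 5 and 1 under all 5 scalings), beside 28.1%, 24.1% and 12.9% of all tested genes. Ccnd3, cyclin D3 of G1 phase, was at 58.8, 73.1 and 75.1 CPM against 547, 583 and 522 CPM (2.99, SE 0.09, adjusted p = 9.27e-12). Replication and mitosis genes were on both sides, with Mcm6 (1.28) and Cdc20 (1.47) robustly higher and Pcna (-1.32), Tyms (-1.77) and Birc5 (-1.63) robustly lower. Mki67 was at 328, 267 and 283 CPM against 202, 192 and 178 CPM (-0.62, SE 0.09), and cyclic loess ended the call (-0.16, limma adjusted p = 0.175). Top2a was held within 1.5-fold at a mean of 508 against 573 CPM (0.17) and was called higher under cyclic loess (0.84) and GC correction (0.42).

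Interferon response genes had 21 higher, 2 lower and 3 held of 33, with a median of 0.72 (12, 2 and 0 under all 5 scalings). The robust members included Tap1 (1.62), the peptide transporter of antigen presentation, Igtp (1.26) and Irf1 (1.10), and on the other side Xaf1 (-0.90) and Rtp4 (-1.60). Genes of redox defence had 3 higher, 12 lower and 5 held of 20, with a median of -0.40 (3, 5 and 1 under all 5 scalings). Prdx1, an abundant peroxiredoxin, was at 3124, 3377 and 3346 CPM against 1104, 1125 and 1236 CPM (-1.51), and Txn1 (-1.02) and Prdx3 (-0.82) were lower too. Catalase, Cat (1.17), and haem oxygenase, Hmox1 (1.30), were higher. Housekeeping genes were not level either, with 4 higher, 7 lower and 2 held of 12 and a median of -0.34, which was 0.54 under cyclic loess. B2m (1.02) was robustly higher and Tbp (-1.03) robustly lower, while Actb (-0.80) and Ppia (-0.49) were called higher under cyclic loess (0.28 and 0.71). Beside the interferon, redox and housekeeping counts, 28.1% of all tested genes were higher, 24.1% lower and 12.9% held. The plot of shares compares each list with 1 scaling and with 5.

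**Figure D4:**
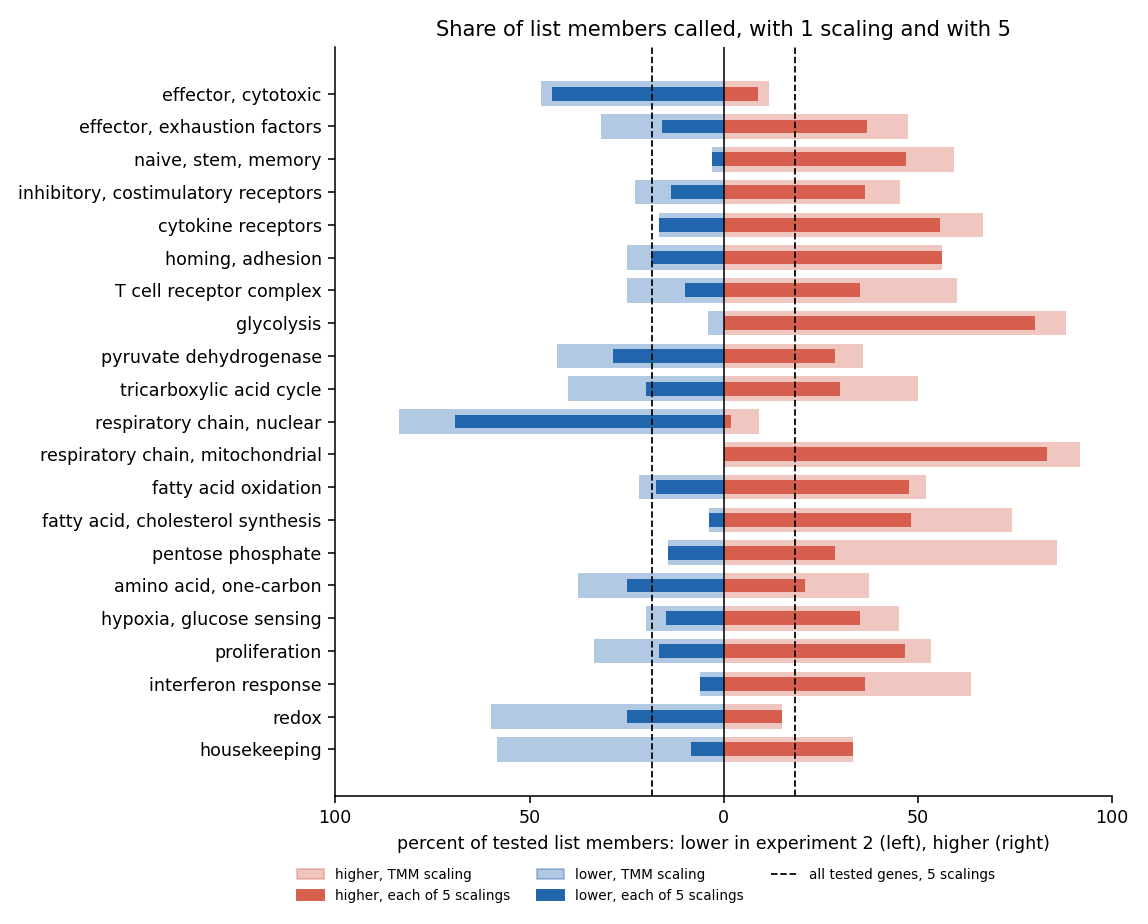
Percent of tested members of each list that were lower (to the left) or higher (to the right) in experiment 2 in DCA-expanded cells. Pale bars use TMM scaling, dark bars need the same call under each of 5 scalings, and dashed lines are the shares of all tested genes under 5 scalings (18.5% lower, 18.4% higher). Glycolysis keeps 20 of 22 higher members and the nuclear respiratory chain 38 of 46 lower members, while the pentose phosphate list goes from 6 higher members to 2.

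Outside the lists, the largest differences among well expressed called genes, without overlap between groups, included metabolic and signalling genes. Selenbp1, a methanethiol oxidase, was at 2.33, 3.12 and 2.65 CPM against 83.0, 81.4 and 82.7 CPM (4.93, SE 0.26, adjusted p = 7.49e-10). Ckb, brain-type creatine kinase, which buffers ATP, was at 4.20, 4.63 and 5.34 CPM against 115, 107 and 90.6 CPM (4.46, SE 0.14, adjusted p = 1.37e-11). Both were low in all 3 experiment 1 libraries and nearly constant within each experiment. Egr1, an early response factor, was at 2.86, 3.30 and 1.09 CPM against 26.7, 94.3 and 29.4 CPM (4.36, SE 0.59), with mouse 2 of experiment 2 above the others. Cox6b2 (3.70), a testis-type subunit of cytochrome c oxidase, Acvrl1 (3.64), a receptor of the BMP family, Espn (3.62) and Rab4a (3.61) were also among the 10 largest. Lowest beside Klra5, Klrc1 and Fcer1g was Spp1, which encodes osteopontin, at 437, 476 and 637 CPM against 52.3, 28.6 and 40.3 CPM (-3.68, SE 0.24). Mir155hg, the host transcript of miR-155, was at 92.3, 183 and 103 CPM against 15.9, 16.4 and 19.8 CPM (-2.86).

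The same contrast was made in the untreated libraries of the same 6 mice, which share mice and batch with the DCA libraries but no library. There 8131 genes were called (51.8%). Of the 8198 genes called in DCA-expanded cells, 6557 were called in untreated cells too, 6539 in the same direction. Glycolysis had a median of 1.25 in untreated and 1.39 in DCA-expanded cells, the nuclear respiratory chain -1.03 and -1.09, the effector list -1.003 and -0.82 and the memory list 0.78 and 0.65. Lists whose medians lay farther apart were the interferon response (0.32 untreated and 0.72 with DCA), the mitochondrially encoded subunits (1.398 and 0.94) and the pyruvate dehydrogenase genes (-0.056 and 0.25), and no member of these lists was called by the test that follows. The test of the difference between these differences called 52 genes (0.331%), 44 positive (0.28%) and 8 negative (0.051%), and 2226 had an unadjusted p under 0.05.

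This count rested on single libraries. Without mouse 1, 2 or 3 of experiment 2 among the DCA libraries, 4, 2 and 1 genes were called, and without mouse 1, 2 or 3 of experiment 1, 37, 143 and 78. With a fixed term per mouse, which uses that each mouse gave both libraries, 24 genes were called (replicate block). Of 21 lists, 1 member of the memory list, Cd44, was called and no member of the other 20, and the 5 with the smallest adjusted p in each direction, together with Myc, a gene fixed for naming, are described here.

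Cd44 was at 67.9 against 38.6 CPM in untreated cells, means of experiment 1 and 2, where its difference was -0.82. With DCA it was 0.30, so the differences differed by 1.11 (SE 0.15, adjusted p = 0.0107). Myc was at 347 against 734 CPM untreated (1.08) and differed by 1.96 with DCA, 0.88 more (SE 0.12, adjusted p = 0.0107). Lta, the gene of lymphotoxin alpha, was at 67.7, 68.1 and 62.3 CPM against 230.4, 221 and 211 CPM with DCA (1.74) and at 91.3 against 145 CPM untreated (0.66). Bax, the pore-forming apoptosis effector, was at 198, 257 and 256 CPM against 204, 188 and 208 CPM with DCA (-0.25) and at 283 against 113 CPM untreated (-1.32). Hspa8, a chaperone gene, was at 1471, 1668 and 1479 CPM against 1361, 1375 and 1367 CPM with DCA (-0.17) and at 2394 against 1222 CPM untreated (-0.97). For Lta, Bax and Hspa8 the difference was more positive with DCA, by 1.08 (SE 0.11), 1.08 (SE 0.13) and 0.80 (SE 0.11).

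Gpat3, an acyltransferase of triglyceride synthesis, showed the reverse. It was at 1.87 against 12.7 CPM untreated (2.76) and at 8.10, 10.5 and 9.98 CPM against 14.7, 10.8 and 15.1 CPM with DCA, where it was not called (0.50). The difference between these was -2.26 (SE 0.34, adjusted p = 0.0146). The calls of St6gal1 (-0.93) and Appl2 (-0.84) were lost with a fixed term per mouse (adjusted p = 0.0531 and 0.104). The plot of both contrasts shows most list members near the line of equal differences.

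**Figure D5:**
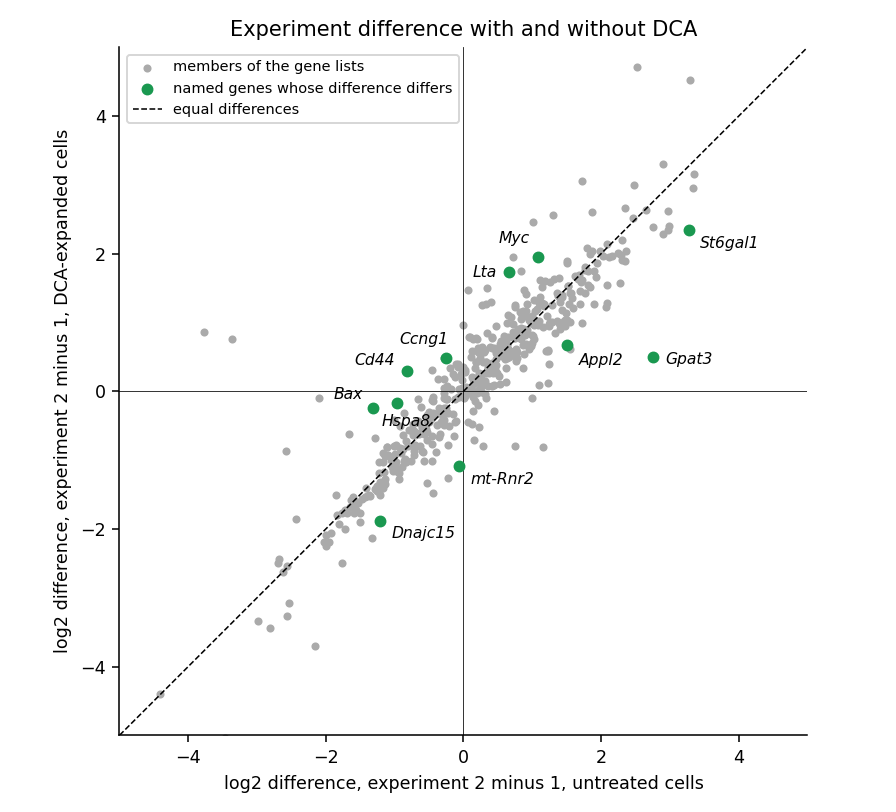
Log2 difference, experiment 2 minus experiment 1, in untreated cells (x axis) and in DCA-expanded cells (y axis) for 477 list members (grey) and the 11 named genes whose differences differed (green). The dashed line marks equal differences, and 3 list members lie outside the axes at 5. Cd44, Bax, Hspa8, Lta, Myc and Ccng1 lie above the line and Gpat3, St6gal1, Appl2, Dnajc15 and mt-Rnr2 below it.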

How the data were processed

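The authors deposited 1 table of whole-number read counts for 56748 genes in 12 libraries (unit: counts), and a table of their own with log2 fold changes and p-values, from which only gene symbols and gene lengths were taken here. Those log2 and p-value columns, as deposited by the authors, come from their own comparisons and are not reported. The submitters' processing notes list STAR 2.7.10a, fastp 0.23.2, edgeR 3.36.0 and the build GRCm39. Which program counted the reads, with which annotation and strand setting, is not given in the sources used here. Symbols came from the authors' table (15067) and from a GRCm38 gene list (37502), and 44 tested genes had none. Per the labels' protocols, libraries were made with a SmartSeq kit without molecular identifiers, so the limit of 3 counts given for 0 counts covers counting error only.

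Counts were tested with edgeR 4.0.16 (R 4.3.3) by the quasi-likelihood test, with 1 mean for each of 4 groups of 3, TMM scaling and edgeR's own filter on low counts, which left 15688 genes. The contrasts were experiment 2 minus 1 in DCA-expanded cells, the same in untreated cells, and their difference, with Benjamini-Hochberg adjustment at 0.05. The 3 mice of an experiment are separate animals per the labels. Alternatives used limma 3.58.1 and DESeq2 1.42.0, other scalings, filters and left-out libraries. GC content was known for 96.6% and length for 96.0% of tested genes. The requirement of 5 scalings was added after seeing the data. Python 3.11.15 and scipy 1.17.1 gave the exact permutation tests over libraries. The edgeR steps were tested on simulated data.

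The 6 libraries, the 21 lists (491 genes) and all tests were chosen with earlier results of these data known. Genes were named by a rule: 51 fixed genes, the 10 largest and 10 smallest differences among called genes without overlap whose log2 CPM averaged 3 or more, up to 3 list members higher, 3 lower and 3 held, and up to 5 genes per direction of the difference between contrasts. This gave 222 genes, and 1 more, Foxo1, was singled out later. Of the fixed genes, 1 was not tested. Some named genes are not reported here. Each mouse gave an untreated and a DCA library, so these are paired: deviations of the 2 from their group means correlated by 0.0443 to 0.0834 over genes.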

Additional observations from a re-analysis of the deposited data

Results flagged for a closer look

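The experiment difference was called different between DCA-expanded and untreated cells for the 11 named genes given here. The test of that difference was edgeR quasi-likelihood, Benjamini-Hochberg adjusted. With a fixed term per mouse the calls of St6gal1 and Appl2 were lost, as given above. Without 1 experiment 2 DCA library, only 1 to 4 of all tested genes were called. Values are the log2 difference with DCA minus that without. More positive with DCA were Cd44 (1.11), Lta (1.08), Bax (1.08), Myc (0.88), the chaperone gene Hspa8 (0.80) and the p53 target Ccng1 (0.73). Ccng1 was at 239, 233 and 255 CPM against 344, 335 and 339 CPM with DCA and at 167 against 140 CPM, group means, without. More negative with DCA were Gpat3 (-2.26), mt-Rnr2 (-1.02), the mitochondrial 16S ribosomal RNA, St6gal1 (-0.93), a sialyltransferase, Appl2 (-0.84), an endosomal adaptor, and Dnajc15 (-0.67), a mitochondrial co-chaperone. The differences of Dnajc15 were -1.88 with DCA and -1.22 without, those of St6gal1 2.34 and 3.27, those of Appl2 0.67 and 1.51, and those of mt-Rnr2 -1.09 and -0.07.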

How the results depend on the processing

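With an absolute log2 difference of at least 1 required, 2674 genes were higher, 1775 lower and 19 differed between the contrasts, and a range of 2-fold held 5168 genes. Under each of 5 scalings, 2884 were higher, 2900 lower and 583 held within 1.5-fold. The 52 genes that differed between contrasts became 30 with cyclic loess, 31 after length correction, 458 with DESeq2 and 566 with no filter on low counts, and 1 to 143 without 1 library. Leaving out 1 library gave 3824 to 4290 genes higher, 3437 to 3583 lower and 1615 to 1842 held. The causes were not tested.

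Same-numbered DCA libraries of the 2 experiments are different mice, and their deviations correlated by -0.0379 to 0.0160, so the numbers do not pair them. A replicate block by mouse number gave 29 genes that differed between contrasts. With each mouse as a block, which the labels do pair, voom with a random replicate block gave 96 and a fixed term per mouse 24.

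Reversed by cyclic loess were Id2 (0.47), Ifngr1 (0.53), Trac (0.78), Cd8b1 (0.53), Mdh2 (0.072), Idh3g (0.14), Cyc1 (0.30), Scd2 (0.52), Psat1 (0.44), Slc3a2 (0.36), Bnip3 (0.32), Rrm2 (0.54), Gpx4 (0.26), Actb (0.28), Ppia (0.71), Hprt (0.37), Bax (0.17) and Hspa8 (0.77). Reversed by GC correction were Runx3 (-0.34), Tnfrsf18 (-0.51), Itgal (-0.40), Eno3 (-0.34), Atp5b (-0.26), Uqcrc1 (-0.35), Elovl1 (-0.13), Psmb8 (-0.17), Isg20 (-0.31), Prdx5 (-0.54), Rplp0 (-0.31) and Hprt (0.032). Reversed by length correction were Sdhc (-0.0125), Atp5b (-0.24), Uqcrc1 (-0.21), Elovl1 (-0.021), Mthfd2 (-0.0058) and Psmb8 (-0.085). A gene listed as reversed changed its sign, with or without a call. Not called there were Mdh2, Idh3g and Bax with cyclic loess, and Elovl1 and Hprt after GC correction. After length correction Sdhc, Elovl1, Mthfd2 and Psmb8 were not called. Of the 2016 genes held within 1.5-fold, 1262 were held after cyclic loess, 1160 after GC correction and 1490 after length correction.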
